A study of Mus musculus with 8 samples.

Results

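The loci described here are those of the dimerization partners of MyoD and of the proteins that compete for them: 3 E protein genes (Tcf3, Tcf4 and Tcf12) and 4 Id genes (Id1, Id2, Id3 and Id4). They were listed by name from the helix-loop-helix family, which includes the basic helix-loop-helix (bHLH) factors, with earlier results of these data known. These 7 genes are among 34328 genes of chromosomes 1 to 19 and X that code for a protein or a long noncoding RNA, of which 27938 had enough peak coverage to be tested. All 7 were tested. The 3 E protein loci held 88 merged peak regions, the 4 Id loci 16, and the whole genome 141301.

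MyoD, Myf5, myogenin and Mrf4 are bHLH transcription factors that bind E-boxes, short DNA sites of the form CANNTG, as heterodimers with E proteins. E proteins are broadly expressed, and the main ones are the products of Tcf3 (E12 and E47), Tcf4 (E2-2, a different gene from the Wnt effector Tcf7l2) and Tcf12 (HEB). Id proteins have the helix-loop-helix but no DNA-binding basic region, so they take E proteins into dimers that do not bind DNA. They are known as inhibitors of muscle differentiation and as targets of BMP signalling.

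The assay was ATAC-seq, which tags accessible DNA with the Tn5 transposase, on satellite cells, the stem cells of skeletal muscle, from the hindlimbs of C57BL/6 mice. There were 4 groups with 2 libraries each: cells taken fresh from muscle (QSC), cells taken 2.5 days after an injury (ASC), and 2 groups of cells cultured in F10 medium with 10% HS, one treated with a control siRNA and the other with an siRNA against LncMyod for 48 h. LncMyod is a long noncoding RNA from the neighbourhood of Myod1. The labels name neither the injury agent nor the animals behind each library, so the p-values reflect the spread of these libraries alone, part of which may be technical.

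The values are peak lists called on each library alone, with 59666 to 95449 peaks and 42.4 to 64.0 Mb covered per library. No read counts were given, so depth is unknown, although it affects how many peaks are found and how wide they are. The absence of a peak does not show that a site was closed. For each gene, peaks were taken over the locus, meaning the gene body plus 10 kb at each end, and the covered length was scaled to the same total of 51.2 Mb in every library. Each peak also carries the authors' fold, its enrichment relative to background in the library it was called in, used here only to describe it. All 7 satellite cell marker loci (Pax7, Cdh15, Vcam1, Itga7, Sdc4, Calcr and Chodl) had a peak in every library. Their summed scaled length was 35.6 and 36.8 kb in QSC and 35.8 and 34.9 kb in ASC. It was 33.5 and 31.3 kb in control siRNA and 25.9 and 32.2 kb in LncMyod siRNA. The sums hide changes of single markers in opposite directions. By limma (adjusted p under 0.05), 2 of the 7 had less covered length in ASC than QSC, beside 5.25% of all loci. In control siRNA 1 had less than in QSC, beside 6.95%, and none had more in either comparison. The log2 changes ran from −0.89 to 0.31 in the first comparison and from −0.83 to 0.42 in the second. ATAC-seq measures no RNA, so neither the loss of LncMyod nor the expression of any gene was checked. Peak signal from fewer cells of a type and less accessible DNA per cell cannot be told apart in bulk samples.

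Start sites are shown first, because all but one of those listed were covered in every library. Promoter windows from RefSeq (GRCm38.p6, the build mm10) were at hand for 5 of the 7 genes. None was at hand for Id1 or Tcf4, so their starts were not compared. The windows of Id2, Id3, Id4, Tcf3 and the outer starts of Tcf12 lay wholly inside a peak in 8 of 8 libraries. Of the 4 stretches printed, those of Id2, Id3 and the outer start of Tcf12 represent the evenly covered starts, and the inner start of Tcf12 is the one whose coverage varied. Each runs 5′ to 3′ on the strand of its gene, from 250 bases before the start to the first 10 bases from it, and capitals mark E-boxes of the form CANNTG. The Id2 stretch is chr12:25096083-25096342 (minus strand), the Id3 stretch chr4:136143572-136143831 (plus strand), the outer Tcf12 stretch chr9:72111810-72112069 and the inner Tcf12 stretch chr9:71896087-71896346 (both minus strand).
Id2: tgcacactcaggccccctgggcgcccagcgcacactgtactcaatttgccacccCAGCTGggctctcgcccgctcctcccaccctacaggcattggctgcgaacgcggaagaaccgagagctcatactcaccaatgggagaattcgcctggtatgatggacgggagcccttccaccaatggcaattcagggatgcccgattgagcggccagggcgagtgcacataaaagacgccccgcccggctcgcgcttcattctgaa
Id3: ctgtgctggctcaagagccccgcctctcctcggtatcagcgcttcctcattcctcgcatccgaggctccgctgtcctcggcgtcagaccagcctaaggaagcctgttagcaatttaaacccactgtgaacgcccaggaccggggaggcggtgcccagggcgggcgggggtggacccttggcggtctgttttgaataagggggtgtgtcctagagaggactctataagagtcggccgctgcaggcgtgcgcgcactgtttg
Tcf12 outer start: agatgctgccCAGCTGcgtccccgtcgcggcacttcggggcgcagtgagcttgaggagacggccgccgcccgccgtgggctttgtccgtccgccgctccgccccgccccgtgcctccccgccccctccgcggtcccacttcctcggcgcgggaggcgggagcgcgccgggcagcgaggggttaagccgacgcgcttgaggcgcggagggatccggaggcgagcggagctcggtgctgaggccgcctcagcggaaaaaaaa
Tcf12 inner start: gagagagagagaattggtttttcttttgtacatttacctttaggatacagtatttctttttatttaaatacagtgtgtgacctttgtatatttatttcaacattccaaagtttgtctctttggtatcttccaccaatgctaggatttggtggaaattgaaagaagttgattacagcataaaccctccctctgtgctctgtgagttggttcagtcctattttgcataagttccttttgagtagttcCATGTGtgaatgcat

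The Id2 stretch held 1 E-box, CAGCTG, beginning at −196 from the start, and the Id3 stretch held none. The outer Tcf12 stretch had 1 E-box, also CAGCTG, at −240, and the window of the second outer start, which is not printed, had 2, CAAGTG at −149 and CACTTG at 18. The inner Tcf12 start had CATGTG at −5, running into the first transcribed base. Over the 300-base windows, on both strands, CANNTG occurred in 72.3% of 32544 listed mouse promoters outside chromosome 18, so the presence of an E-box in a promoter is common. CAGCTG occurred in 16.4% and CAGGTG in 20.3% of them. CAGCTG and CAGGTG are both forms of CANNTG and overlap it. CAGGTG occurred in none of the windows of the 5 genes. The Id4 window had no CANNTG and the Tcf3 window had 1. Of the other motifs searched, CCAAT (37.4% of promoters) occurred at 3 positions in the Id2 window, 2 in Id4 and 2 at the inner Tcf12 start, GGCGCC (11.9%) at 1 in Id2 and 1 in Id4, and TATAAA (13.6%) in none. A match to a motif is a match of letters and says nothing about binding.

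The start sites themselves differed little in coverage. The strongest peak over the Id2 window had a deposited fold of 4.42 to 4.95 over the 8 libraries, that of Id3 2.88 to 3.36, that of Id4 4.40 to 5.81, that of Tcf3 4.20 to 6.35 and that of the outer Tcf12 starts 5.09 to 5.89. The inner Tcf12 start, which has a GC content of 36.3% against a median of 53% over the 32544 promoters counted above, behaved otherwise. Its window was wholly covered in both ASC libraries, both control siRNA libraries and LncMyod siRNA replicate 1, and not at all in both QSC libraries and LncMyod siRNA replicate 2. The merged region around it, chr9:71895419-71897799, was held by all 8 libraries, with different peaks. ASC replicate 2, both control siRNA libraries and LncMyod siRNA replicate 1 had 2 peaks each, one over the window with a deposited fold of 2.48 to 2.91 and a stronger one (3.63 to 6.32) that began 1090 to 1102 bp beyond it, upstream of the start. LncMyod siRNA replicate 2 had the upstream peak alone (5.30), and ASC replicate 1 the window peak alone (3.39). Each QSC library had 1 peak, which began 129 and 72 bp beyond the window and overlapped the place of the upstream peak.

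Peaks took up different shares of the loci. They covered 18.8 to 27.3% of the Id1 locus over the 8 libraries and 15.9 to 23.8% of the Id3 locus. The shares were 6.45 to 12.0% for Id2, 6.83 to 8.55% for Id4, 5.14 to 9.17% for Tcf3, 4.98 to 9.24% for Tcf4 and 1.61 to 3.70% for Tcf12. Id genes are short and E protein genes are long, so the 20 kb of flank is most of an Id locus and little of a Tcf4 or Tcf12 locus. Of the 16 regions of the Id loci 12 were held by all 8 libraries (75%), of the 88 regions of the E protein loci 25 (28.4%), and of all regions 35293 (25.0%). Between 12 and 15 of the 16 Id regions had a peak in each library, against 38 to 61 of the 88 E protein regions.

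**Figure D1:**
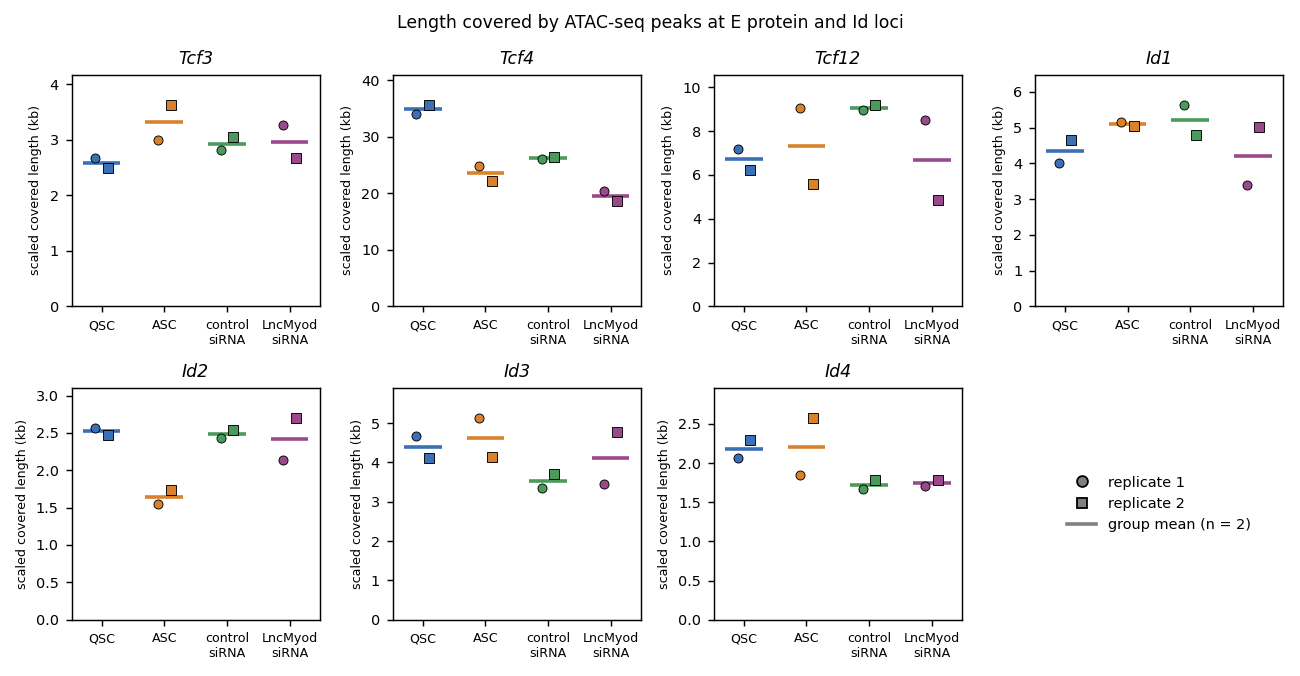
Scaled length covered by peaks (kb, y axis from 0) at the 7 loci in each of the 8 libraries, by group (x axis); circles are replicate 1, squares replicate 2 and lines the mean of 2. At Tcf4 both QSC libraries lie above the other 6, and at Id2 both ASC libraries lie below the other 6. Such separations were not counted over all genes.

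Tcf4 was the one locus of the 7 past the threshold in any comparison, with more peak coverage in QSC than in ASC and in control siRNA. The gene is 344.5 kb long (chr18:69343429-69687967). Covered length was 34.0 and 35.7 kb in the QSC libraries, 24.9 and 22.3 kb in ASC, 26.0 and 26.4 kb in control siRNA, and 20.5 and 18.7 kb in LncMyod siRNA. No QSC value overlapped any value of another group, and the scaled LncMyod siRNA values lay below all others. How many of all genes had groups that lay apart in this way was not counted, here or for the other loci. With 2 libraries a group such a separation can arise by chance. Before scaling, the QSC values stayed highest (33671 and 32780 bp). LncMyod siRNA replicate 1 then had 25565 bp, above both ASC values (24887 and 18428 bp), and LncMyod siRNA replicate 2 had 18146 bp.

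From QSC to ASC, Tcf4 fell from 34.8 ± 1.16 to 23.6 ± 1.85 kb (SD, n = 2 each), with a log2 change of −0.56 (SE 0.09, adjusted p = 0.0132 by limma). It was the only one of the 7 loci past the threshold, where 5.25% of all loci tested had less covered length, 7.56% had more and 12.8% changed in either direction. The 7 loci had a median log2 change of 0.06, against 0.06 over all genes tested. The Tcf4 call was lost without QSC replicate 1 (adjusted p = 0.0763), QSC replicate 2 (0.103) or ASC replicate 2 (0.0520). It was also lost without scaling (0.170), with quantile normalization (0.113), by peak number (0.0668), with stronger peaks alone (those with a −log10 q of at least 5, 0.0988) and in a fit on these 4 libraries (0.151), and the log2 change ran from −0.63 to −0.30 over all 20 alternatives.

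Tcf4 also fell from QSC to control siRNA, to 26.2 ± 0.289 kb (SD, n = 2), a log2 change of −0.40 (SE 0.09, adjusted p = 0.0294 by limma). Again it was the only one of the 7, beside 6.95% of all loci with less covered length, 9.96% with more and 16.9% changed in either direction, and the median change was −0.02 in the 7 loci and 0 over all genes. Both comparisons use the same QSC libraries. This call was lost without QSC replicate 1 (adjusted p = 0.113), QSC replicate 2 (0.163), control siRNA replicate 1 (0.150) or control siRNA replicate 2 (0.138), and under 5 other alternatives: without scaling (0.450), with quantile normalization (0.182), with stronger peaks alone (0.0849), over the gene body alone (0.0725) and in a fit on these 4 libraries (0.0548).

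Between control siRNA and ASC the Tcf4 difference was 0.15 on the log2 scale (95% interval −0.07 to 0.37, adjusted p = 0.385). None of the 7 loci passed in that comparison, where 3.99% of all loci did by limma, 2.28% with more and 1.72% with less covered length. At an unadjusted p under 0.05, 1 of the 7 and 6236 of 27938 genes were counted. The median change was 0.02 in the 7 loci and −0.08 over all genes.

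With LncMyod siRNA the Tcf4 locus had 19.6 ± 1.25 kb against 26.2 ± 0.289 kb with control siRNA (SD, n = 2 each). The log2 change was −0.41 (95% interval −0.63 to −0.19), which did not pass after adjustment (adjusted p = 0.228 by limma). It ran from −0.48 to −0.07 over all 20 alternatives. None of the 7 loci passed, beside 6 of 27938 genes (0.0215%), all with more covered length. At an unadjusted p under 0.05 the counts were 1 of the 7, Tcf4, and 2740 of all genes, and the medians were −0.04 and −0.05.

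**Figure D2:**
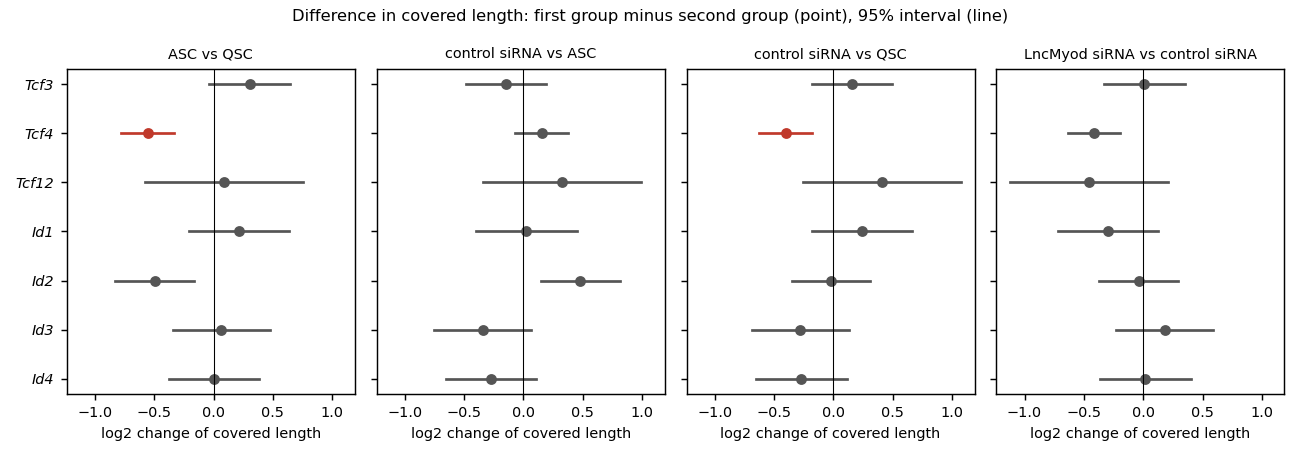
Log2 change of covered length (x axis, first group minus second) with its 95% interval for the 7 loci in the 4 comparisons; red marks adjusted p under 0.05. Tcf4 is marked in ASC vs QSC (−0.56) and control siRNA vs QSC (−0.40), and no locus is marked in the other panels.

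Within the Tcf4 locus, the differences from QSC were larger in regions that not every library held than in those all 8 held. Of its 55 regions, 19 were held by all 8 libraries, and QSC had 18.3 ± 0.0197 kb in these, ASC 17.4 ± 0.542 kb, control siRNA 17.1 ± 0.408 kb and LncMyod siRNA 13.9 ± 2.22 kb (SD, n = 2 each). In the other 36 regions QSC had 16.5 ± 1.14 kb, ASC 6.13 ± 1.31 kb, control siRNA 9.14 ± 0.696 kb and LncMyod siRNA 5.71 ± 3.47 kb. From control siRNA to LncMyod siRNA the means fell in both sets of regions, and the LncMyod siRNA replicates varied most. The split uses the libraries that are then compared, so it is a description with no test. The 2 strongest common regions, chr18:69469248-69470542 and chr18:69547334-69548216, had deposited folds of 6.83 to 9.78 and 7.92 to 10.2.

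A region counts here as specific to one of the 2 groups compared if it has a peak in both libraries of that group and in neither library of the other. Against ASC, 13 of the 55 Tcf4 regions (23.6%) were specific to QSC and 1 (1.82%) to ASC, while of all 141301 regions 8.54% and 5.99% were. The Tcf4 counts were 18 and 4 without ASC replicate 1 (13.0% and 10.2% of all regions) and 14 and 4 without ASC replicate 2 (9.17% and 12.7%), in alternatives chosen after seeing the data. With 2 libraries against 2 an exact two-sided permutation test cannot go below 0.333, so these counts have no p. The 13 lay 12.0 to 346.7 kb from the end of the gene with the lower coordinate, 12 of them in the gene body, with deposited folds of 2.37 to 5.96. Against control siRNA, 10 regions (18.2%) were specific to QSC and 2 (3.64%) to control siRNA, beside 8.09% and 15.5% of all regions.

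A total of 8 Tcf4 regions, all in the gene body, were held by both QSC libraries and by none of the other 6 (14.5% of its regions, beside 5.18% of all regions). The strongest was chr18:69440076-69440652, with deposited folds of 5.41 and 5.96, followed by chr18:69460926-69461573 (4.79 and 4.75) and chr18:69425140-69425525 (4.54 and 3.10). Just beyond the second of these lay chr18:69462295-69463057, which both control siRNA and both LncMyod siRNA libraries held, with folds of 5.31, 5.55, 4.83 and 4.75, and no QSC or ASC library did. A further strong QSC region, chr18:69567408-69567810 (6.99 and 5.81), was also held by ASC replicate 2 at a fold of 2.93. The region chr18:69631602-69632244 was held by both ASC and both control siRNA libraries, with folds of 2.44 to 3.04, and by no other. With all libraries it was the one region of the 7 loci specific to control siRNA against LncMyod siRNA, and none was specific to LncMyod siRNA, beside 1.42% and 2.2% of all regions. Without LncMyod siRNA replicate 1 the first count was 14, of which 8 lay in Tcf4, and 8.47% of all regions.

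**Figure D3:**
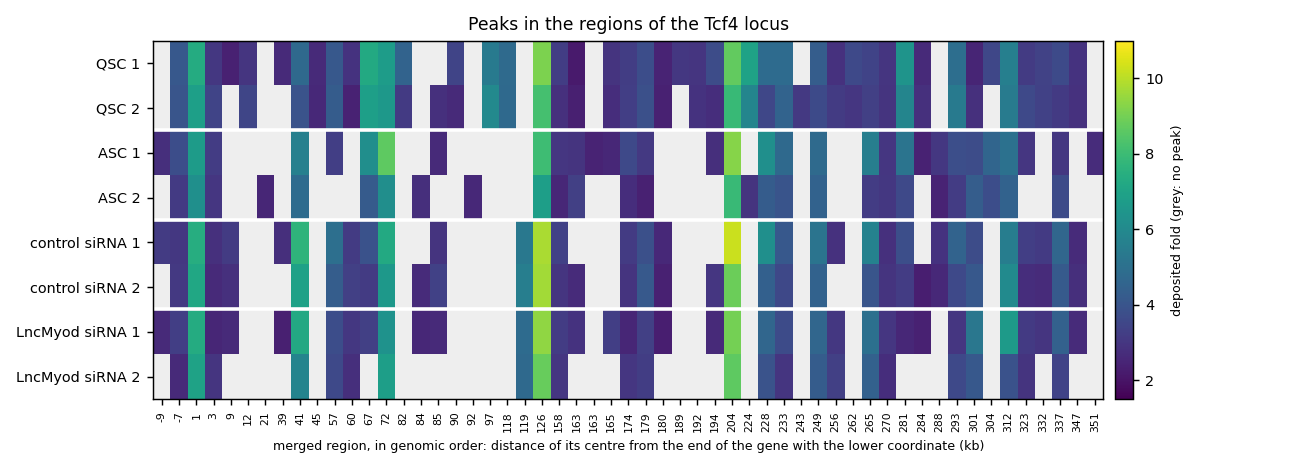
Deposited fold (colour) of the strongest peak in each of the 55 merged regions of the Tcf4 locus (x axis, in genomic order, labelled with the distance in kb of the region centre from the lower-coordinate end of the gene) for the 8 libraries (rows); grey means no peak. Of these columns 19 are filled in all rows and 8 in the QSC rows alone.

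Library differences stood beside the Tcf4 result. Summed covered length over 6 leukocyte marker loci (Ptprc, Cd68, Itgam, Csf1r, Cd3e and Laptm5) was 5.33 and 5.64 kb in QSC, where 3 and 2 of the 6 had a peak and Ptprc, Itgam and Laptm5 were at 0 in both libraries. It was 8.40 and 10.1 kb in ASC, where all 6 had a peak, 13.3 and 13.5 kb in control siRNA with all 6, and 11.2 and 15.6 kb in LncMyod siRNA, where Ptprc was at 0. Mural markers (4 loci, all with a peak in every library) summed to 13.4 and 14.0 kb in QSC and to 8.47 to 12.1 kb over the other libraries, lowest in ASC replicate 2. Endothelial markers, with 5 or 6 of 6 loci with a peak and Emcn the one at 0, ranged from 11.8 to 15.2 kb over all libraries. Fibroadipogenic markers, with 5 or 6 of 6 and Lum the one at 0, ranged from 8.10 to 14.8 kb, and glial markers, with 3 or 4 of 4, from 3.54 to 6.59 kb. The part of other cells in the Tcf4 result was not tested. Within the locus lies the long noncoding RNA gene Gm31439, whose own locus shares 12.1% of the Tcf4 coverage.

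The genes whose covered length followed that of Tcf4 most closely over the 8 libraries were Ctps2 (Pearson r of log2 lengths 0.985), Chst9 (0.979) and Cabcoco1 (0.964), among protein-coding genes over 1 Mb away or on another chromosome whose group means spanned at least 1 on the log2 scale. They had 3.69, 5.17 and 4.19 kb in QSC and 1.44, 0.932 and 0.759 kb in LncMyod siRNA. The 8 points share groups and library depth, so these values only rank genes by likeness.

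Tcf12 (chr9:71844252-72111893, 267.6 kb, minus strand) did not pass in any comparison by its total coverage. Its covered length was 7.17 and 6.24 kb in QSC, 9.05 and 5.60 kb in ASC, 8.95 and 9.20 kb in control siRNA and 8.52 and 4.87 kb in LncMyod siRNA. The replicates of ASC and of LncMyod siRNA lay far apart, on both sides of the QSC values. The log2 change was 0.41 from QSC to control siRNA (95% interval −0.25 to 1.08, adjusted p = 0.370), 0.09 from QSC to ASC (−0.58 to 0.75, adjusted p = 0.911), and −0.46 from control siRNA to LncMyod siRNA (−1.13 to 0.20, adjusted p = 0.682).

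By single regions, Tcf12 held several found in the cultured libraries and not in QSC. Of its 27 regions 8 (29.6%) were specific to control siRNA against QSC and 1 (3.70%) to QSC, beside 15.5% and 8.09% of all regions. Against ASC, 6 (22.2%) were specific to control siRNA and none to ASC, beside 11.7% and 2.64% of all regions. Without ASC replicate 1 these counts were 10 and 1, beside 17.6% and 6.1% of all regions. Without ASC replicate 2 they were 6 and 6, beside 12.8% and 7.57% of all regions. Of the 8 specific against QSC, 4 were held by both LncMyod siRNA libraries and the other 4 by one of them. Of all control siRNA regions specific against QSC, 64.8% were held by both and 6.50% by neither. Just 3 regions of the locus (11.1%) were held by all 8 libraries.

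The strongest culture region, chr9:72097034-72097495, lies inside the gene, 253.0 kb from its lower-coordinate end. It had deposited folds of 8.98 and 9.64 with control siRNA and 6.75 and 4.68 with LncMyod siRNA, and no peak in any QSC or ASC library. The regions chr9:72016003-72016387 (7.13 and 5.91 with control siRNA, 5.26 and 4.18 with LncMyod siRNA) and chr9:71861647-71862015 (5.74 and 5.08, 4.93 and 3.20) had the same pattern. All 3 were held by the 4 cultured libraries and by no isolated one, beside 4.78% of all regions. Without LncMyod siRNA replicate 2 there were 5 such regions in the locus (18.5%), beside 7.73% of all. The single region specific to QSC against control siRNA, chr9:71877841-71878535 (4.06 and 4.36), was also held by ASC replicate 1.

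The common region chr9:71874507-71875243 had deposited folds of 4.92 and 4.52 in QSC, 6.00 and 4.87 in ASC, 10.5 and 9.74 in control siRNA, and 10.1 and 9.07 in LncMyod siRNA. It was the strongest peak of the locus in the cultured libraries, where it ranked in the top 1.06, 1.27, 0.418 and 0.470% of the peaks of its own list. The strongest Tcf12 peak of the QSC and ASC libraries ranked in the top 14.1 to 20.1%. Folds are on the scale of each library's own background and were not tested between groups.

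**Figure D4:**
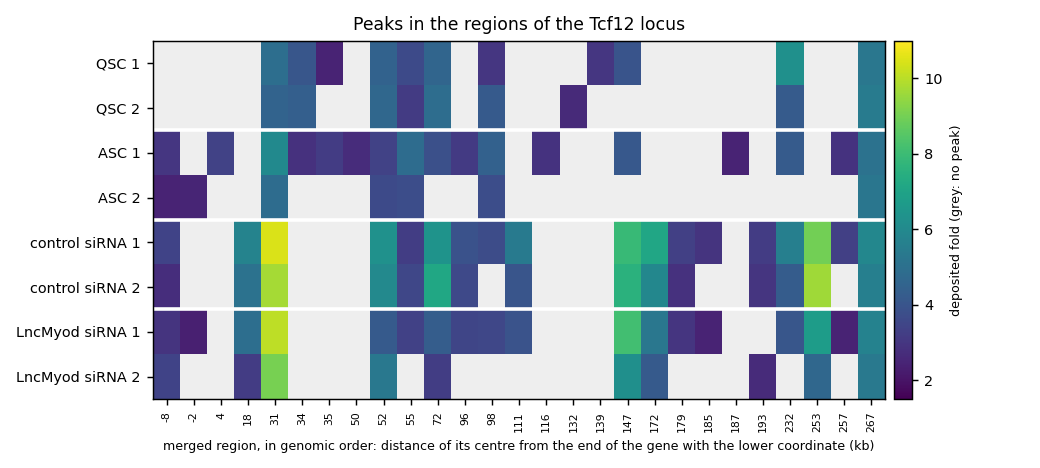
Deposited fold (colour) of the strongest peak in each of the 27 merged regions of the Tcf12 locus (x axis, genomic order, distance in kb of the region centre from the lower-coordinate end of the gene) for the 8 libraries (rows); grey means no peak. The columns at 18, 172 and 253 kb are filled in the 4 cultured rows alone, and the column at 31 kb is filled in all rows, with folds of 4.52 to 10.5.

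Tcf3 (chr10:80409541-80433976, 24.4 kb, minus strand) passed in no comparison with the 10 kb flanks. It had 2.68 and 2.49 kb in QSC, 2.99 and 3.63 kb in ASC, 2.81 and 3.06 kb in control siRNA and 3.26 and 2.67 kb in LncMyod siRNA. Both QSC values lay below both ASC and both control siRNA values, but the log2 changes of 0.30 (95% interval −0.04 to 0.64, adjusted p = 0.227) and 0.16 (−0.18 to 0.50, adjusted p = 0.511) did not pass. With 50 kb on both sides the difference did pass in both comparisons (adjusted p = 0.0223 and 0.0171 by limma). In that setting 6761 and 7460 of 27938 genes passed, and each flank is longer than the gene and takes in its neighbours. Much of the coverage is shared with neighbours, 45.4% of it with the locus of Uqcr11, a mitochondrial complex III gene, 38.9% with that of Mbd3, a chromatin remodeler gene, and 17.4% with that of the long noncoding RNA gene Gm30823. The shares of Mbd3 and Gm30823 lie within that of Uqcr11, so they do not add up. Of its 6 regions 3 were held by all 8 libraries, and 2 regions in the gene body (chr10:80412657-80413546 and chr10:80418324-80419657) were held by both control siRNA libraries at folds of 2.21 to 3.39 and by 2 or 3 of the others.

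Among the Id genes, Id2 had the least coverage in ASC. Id2 (chr12:25093799-25096092, minus strand) had 2.57 and 2.47 kb in QSC, 1.55 and 1.74 kb in ASC, 2.43 and 2.53 kb in control siRNA and 2.14 and 2.70 kb in LncMyod siRNA. Both ASC values lay below the other 6, a pattern whose share over all genes was not counted. The log2 change from QSC to ASC was −0.50 (SE 0.14, adjusted p = 0.0615) and from ASC to control siRNA 0.48 (SE 0.14, adjusted p = 0.106), and neither passed. The first passed without scaling (adjusted p = 0.0416), with quantile normalization (0.0353), with lists of equal length (0.0136), without LncMyod siRNA replicate 1 (0.0392) and without LncMyod siRNA replicate 2 (0.0403). The second passed with lists of equal length (0.00925), and turned to −0.26 when peaks were counted and to −0.18 over the gene body alone.

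The Id2 libraries differed in the width of peaks, in 3 regions that every library held. The fourth region was held by QSC replicate 1 alone. In chr12:25098497-25099685, which begins 2405 bp upstream of the start, peaks covered 1135 and 1189 bp in QSC, 527 and 553 bp in ASC, 1126 and 1099 bp in control siRNA and 1141 and 1109 bp in LncMyod siRNA. In chr12:25092274-25093217, beyond the other end of the gene, they covered 362 and 294 bp in QSC and 302 and 294 bp in ASC, against 822 and 916 bp in control siRNA and 937 and 928 bp in LncMyod siRNA. The region over the start, chr12:25095769-25096568, had 783 and 789 bp in QSC, 718 and 590 bp in ASC, 537 and 571 bp in control siRNA and 590 and 582 bp in LncMyod siRNA. These are unscaled lengths of single regions, and no test was made on them.

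Id1 (chr2:152736251-152737410) had 4.02 and 4.65 kb in QSC, 5.16 and 5.05 kb in ASC, 5.64 and 4.80 kb in control siRNA and 3.40 and 5.01 kb in LncMyod siRNA. The LncMyod siRNA replicates lay on both sides of the QSC values, and no comparison passed (adjusted p from 0.412 to 0.960). One small region downstream of the gene, chr2:152739112-152739624, was held by the 4 cultured libraries alone, at folds of 1.81 and 1.71 with control siRNA. The upstream region chr2:152729457-152730200 had folds of 3.01 and 3.10 in QSC, 3.63 and 2.84 in ASC, 6.43 and 6.12 in control siRNA and 5.24 and 5.29 in LncMyod siRNA. The locus of the long noncoding RNA gene Gm32057 shares 30.4% of the Id1 coverage.

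Id3 (chr4:136143822-136145392, plus strand) had 4.68 and 4.12 kb in QSC, 5.13 and 4.14 kb in ASC, 3.36 and 3.71 kb in control siRNA and 3.45 and 4.78 kb in LncMyod siRNA. Both control siRNA values lay below all QSC and ASC values, and the log2 changes of −0.28 from QSC (95% interval −0.69 to 0.13, adjusted p = 0.325) and −0.34 from ASC (−0.75 to 0.07, adjusted p = 0.302) did not pass. Unscaled, the Id3 values overlapped, with 3435 and 3786 bp in control siRNA, 4629 and 3783 bp in QSC and 5132 and 3427 bp in ASC. Each of 4 of its 5 regions was held by all 8 libraries. All of its coverage (100%) is shared with the locus of the long noncoding RNA gene Gm42329.

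Id4 (chr13:48261116-48266028, plus strand) had 2.07 and 2.29 kb in QSC, 1.84 and 2.57 kb in ASC, 1.66 and 1.78 kb in control siRNA and 1.70 and 1.79 kb in LncMyod siRNA. The 4 cultured values lay below the 4 isolated ones after scaling, a pattern that was not counted over all genes. Before scaling, LncMyod siRNA replicate 1 had 2127 bp, above both QSC values (2044 and 2107 bp) and ASC replicate 1 (1844 bp). The log2 change from QSC to control siRNA was −0.27 (95% interval −0.65 to 0.11, adjusted p = 0.309 by limma). The smaller of its 2 regions, chr13:48273399-48274076, was held by 7 libraries and not by ASC replicate 2. The overlapping long noncoding RNA gene A330033J07Rik shares 84.0% of the coverage. In the comparison of LncMyod siRNA with control siRNA, the log2 changes of the 4 Id loci ran from −0.30 to 0.18 with adjusted p from 0.676 to 0.993.

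**Figure D5:**
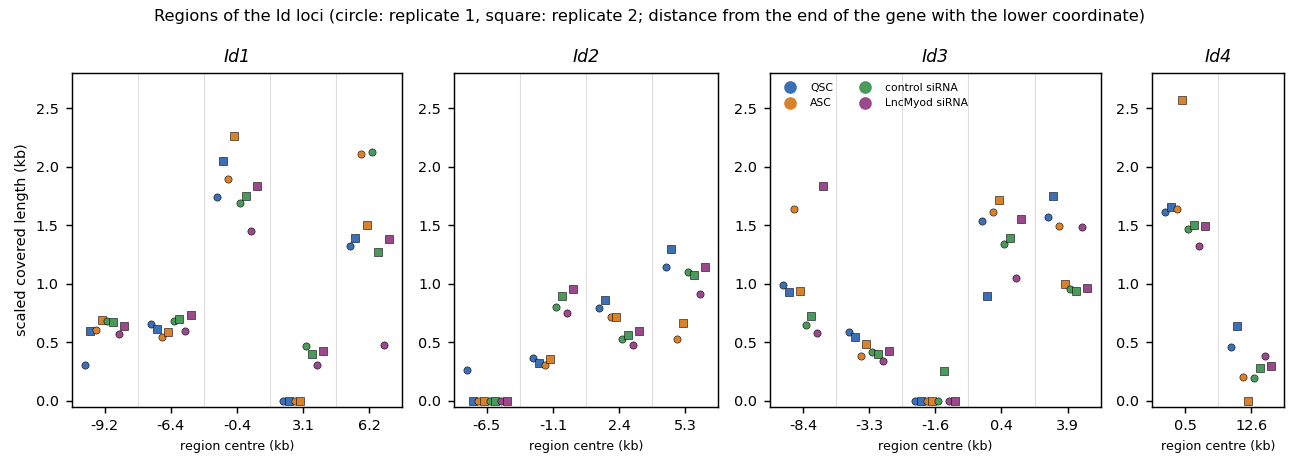
Scaled covered length (kb, y axis) in each merged region of the 4 Id loci for the 8 libraries (circles replicate 1, squares replicate 2, colours by group), by the distance of the region centre from the lower-coordinate end of the gene (kb, x axis, regions in order and not to scale). In the Id2 panel the ASC points are the lowest at 5.3 kb, and at −1.1 kb the cultured points lie above the QSC and ASC points.

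Other genes of the pathway were taken from lists of the MyoD family (4 genes), other bHLH partners of E proteins (18), repressors that bind E-boxes (10), cofactors of E proteins (9) and BMP signalling (18). All were tested, and counts are of genes past the threshold by limma. No gene of these lists passed in LncMyod siRNA against control siRNA. At an unadjusted p under 0.05 the counts in that comparison were 0, 3, 0, 0 and 3 in the order given, beside 2740 of 27938 genes.

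In the MyoD family, 2 of 4 rose from QSC to control siRNA, where 9.96% of all loci did. Myog, which encodes myogenin, the factor of terminal differentiation, rose from 1.95 ± 0.633 to 5.23 ± 0.561 kb (SD, n = 2 each), a log2 change of 1.25 (adjusted p = 0.00973). Myod1 rose from 2.12 ± 0.131 to 3.42 ± 0.0672 kb (0.58, adjusted p = 0.0466). Myf5 had 4.99 ± 0.0272 and 3.32 ± 0.983 kb (−0.55, adjusted p = 0.0864) and Myf6, the gene for Mrf4, 6.23 ± 0.754 and 4.12 ± 1.05 kb (−0.56, adjusted p = 0.0696). None of the 4 passed in ASC against QSC or in control siRNA against ASC. Unadjusted p-values under 0.05 by limma were found for 1 and 3 of the 4, beside 7841 and 6236 of 27938 genes. The same alternatives were run for the 12 calls of pathway genes, a choice made after seeing the data. The Myog call was lost without QSC replicate 1 (adjusted p = 0.0551), control siRNA replicate 1 (0.0708) or control siRNA replicate 2 (0.0537), and under 4 other alternatives (0.260 to 0.938). In 2 of these the log2 change of Myog turned to −0.39 (stronger peaks alone) and −0.16 (equal list lengths). The Myod1 call was lost when any one library other than LncMyod siRNA replicate 1 or LncMyod siRNA replicate 2 was left out (adjusted p from 0.0541 to 0.199), and under 5 other alternatives (0.0539 to 0.573). That of Myod1 turned to −0.16 over the gene body alone.

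Among the cofactors, Runx1t1, which encodes the corepressor ETO that binds E proteins, fell from 8.71 ± 0.767 kb in QSC to 3.62 ± 0.0752 kb in ASC (−1.16, adjusted p = 0.00299), and it had 2.75 ± 0.120 kb in control siRNA (−1.50 against QSC, adjusted p = 0.00169). Ep300, which encodes the histone acetyltransferase p300, rose from 1.87 ± 0.206 kb in QSC to 3.36 ± 0.214 kb in control siRNA (0.70, adjusted p = 0.0271). In that list 1 of 9 fell and none rose from QSC to ASC, and 1 rose and 1 fell from QSC to control siRNA. Of all loci, 5.25% fell and 7.56% rose in the first comparison, and 6.95% fell and 9.96% rose in the second. The list medians were −0.19 and −0.14. Both Runx1t1 calls held without any one library and were lost with stronger peaks alone (adjusted p = 0.375 and 0.189). The Ep300 call was lost without QSC replicate 1 (adjusted p = 0.0904), QSC replicate 2 (0.152), control siRNA replicate 1 (0.103) or control siRNA replicate 2 (0.143), and under 5 other alternatives (0.0547 to 0.148).

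Of the other bHLH genes, 1 of 18 rose from QSC to ASC: Neurod1, a neuronal bHLH gene, which had 217.6 and 219.3 scaled bp in QSC and 1594.3 and 1006.3 scaled bp in ASC (log2 change 1.31, adjusted p = 0.0179). Of all loci 7.56% rose, so the share in this list was near the background. From QSC to control siRNA 2 of 18 fell, beside 6.95% of all loci. These were Msc, which encodes musculin, a bHLH repressor known in myoblasts, from 2.82 ± 0.292 to 1.22 ± 0.115 kb (−0.95, adjusted p = 0.0326), and Tal2, from 1.73 ± 0.353 to 0.315 ± 0.0163 kb (−1.45, adjusted p = 0.00637). Of the E-box repressors, 1 of 10 passed, in ASC against QSC, where 5.25% of all loci fell: Heyl, a Notch target, fell from 7.09 ± 0.582 in QSC to 4.52 ± 0.835 kb in ASC (−0.61, adjusted p = 0.0476). The Neurod1 call was lost without QSC replicate 1 (adjusted p = 0.106), QSC replicate 2 (0.114) or ASC replicate 1 (0.0606), and under 2 other alternatives (0.0587 to 0.0793). The Msc call was lost when any one library other than ASC replicate 1 or ASC replicate 2 was left out (adjusted p from 0.0570 to 0.178), and over the gene body alone (0.648). The Tal2 call was lost without QSC replicate 1 (adjusted p = 0.05001), and under 3 other alternatives (0.0749 to 0.617). The Heyl call was lost when any one library other than ASC replicate 1 was left out (adjusted p from 0.0658 to 0.236), and under 7 other alternatives (0.0503 to 0.499).

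In BMP signalling, the pathway upstream of the Id genes, 1 of 18 genes passed in each of 3 comparisons, beside 12.8% of all loci in ASC against QSC, 3.99% in control siRNA against ASC and 16.9% in control siRNA against QSC. Grem1, which encodes the secreted BMP antagonist gremlin, rose from 1.17 ± 0.205 kb in QSC to 2.66 ± 0.603 kb in ASC (0.92, adjusted p = 0.0328). Bmp4, which encodes a BMP ligand, fell from 3.03 ± 0.189 kb in QSC and 2.93 ± 0.430 kb in ASC to 0.935 ± 0.238 kb in control siRNA (−1.31, adjusted p = 0.0140, and −1.26, adjusted p = 0.0388). The list medians were 0.04, 0.0031 and −0.0027 in ASC against QSC, control siRNA against ASC and control siRNA against QSC, beside 0.06, −0.08 and 0 over all genes tested. The Grem1 call was lost when any one library other than LncMyod siRNA replicate 1 or LncMyod siRNA replicate 2 was left out (adjusted p from 0.0546 to 0.184), and under 6 other alternatives (0.0512 to 1). With stronger peaks alone the log2 change of Grem1 was 0. The Bmp4 call against QSC was lost without QSC replicate 1 (adjusted p = 0.0860), QSC replicate 2 (0.106), control siRNA replicate 1 (0.0554) or control siRNA replicate 2 (0.0916), and by peak number (0.265). The Bmp4 call against ASC was lost when any one library other than LncMyod siRNA replicate 1 or LncMyod siRNA replicate 2 was left out (adjusted p from 0.0735 to 0.197), and under 6 other alternatives (0.0585 to 0.294).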

How the data were processed

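This section covers ATAC-seq peaks of 8 mouse libraries. The build was mm10, and the submitters' processing notes name MACS2 2.1.1, Bowtie2 2.3.2, Trimmomatic 0.36, bedtools 2.26.0, bcl2fastq 2.19, SAMtools 1.3 and Picard 2.9.2, with settings not given in the sources used here. The authors' deposited lists give each peak a position, a display score, a fold enrichment (a ratio), a −log10 p and a −log10 q. Some peaks had been removed, since each list lacks 51 to 62 of its peak numbers. One LncMyod siRNA library spells its treatment LndMyod, and its title gave its group.

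Gene positions and promoters came from RefSeq (GRCm38.p6). Covered length was analysed as log2(scaled bp + 500 bp), which understates changes of loci with little coverage. Genes covered over 200 bp or more in 2 or more libraries were fitted with limma 3.58.1 (R 4.3.3, trended prior, 4 group means over 8 libraries), and p-values were adjusted by Benjamini-Hochberg at 0.05. Regions are peaks of all libraries merged where they overlap or touch. Named genes are the 7 members, the MyoD family, and from each other list up to 4 genes per direction past the threshold. Alternatives changed the scaling, pseudocount, measure, peak threshold, list length, locus, filter, libraries fitted, replicate block and each library. The fit was tested on simulated data. The members and lists were chosen with earlier results of these data known. Samples were grouped by their labels, and none was left out.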

Additional observations from a re-analysis of the deposited data

How the results depend on the processing

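Of 560 log2 changes of the 7 loci under alternatives, 483 kept their direction and side of the threshold, 17 lost a call, 9 gained one and 51 took the opposite sign, the last all at loci without a call in that comparison; the causes were not tested. The number of the 7 loci past the threshold in ASC against QSC was 1 in the report. It became 0 by peak number, with stronger peaks (−log10 q of at least 5) alone and in a fit on the 4 libraries. Of all 27938 genes, 3529, 2356 and 1186 passed under these settings, beside 3580 in the report. Without scaling and with quantile normalization the number for the 7 loci stayed 1, but Id2 passed in place of Tcf4. Of all genes 1820 and 3343 passed there. The number for the 7 loci was 2 with equal list lengths and with 50 kb of flank, where 4014 and 6761 of all genes passed. For the 7 loci it ranged from 0 to 2 when 1 library was left out. In control siRNA against ASC it was 1 with equal list lengths in place of 0, beside 2640 in place of 1116 of 27938 genes. In control siRNA against QSC, 1 became 0 without scaling, with quantile normalization, with stronger peaks alone and in a fit on the 4 libraries, and 2 with 50 kb of flank, with a range of 0 to 1 over left-out libraries. In that comparison Id2 passed, with less coverage, over the gene body alone (adjusted p = 0.0175 by limma), where Tcf4 did not. Of all 27938 genes, 4726 passed there in the report, 7460 with 50 kb of flank and 2725 over the gene body alone. The all-gene calls were 3188 without scaling, 4540 with quantile normalization, 3270 with stronger peaks alone and 5351 in the fit on the 4 libraries. In ASC against QSC, log2 changes took the opposite sign without scaling (Id4 −0.052), with quantile normalization (Id3 −0.0070, Id4 −0.082), by peak number (Id4 −0.28), with stronger peaks alone (Tcf12 −0.32, Id3 −0.028), with equal list lengths (Id4 −0.026), over gene bodies alone (Tcf12 −0.18) and with 50 kb of flank (Id4 −0.22), and leaving out 1 library in turn gave ranges of Id4 −0.19 to 0.20, Tcf12 −0.24 to 0.41 and Id3 −0.075 to 0.20. In control siRNA against ASC, log2 changes took the opposite sign by peak number (Tcf4 −0.16, Id1 −0.017, Id2 −0.26, Id4 0.089), with stronger peaks alone (Id1 −0.18), with equal list lengths (Tcf4 −0.19), over gene bodies alone (Tcf3 0.17, Id1 −0.28, Id2 −0.18) and with 50 kb of flank (Tcf3 0.019, Id1 −0.21), and leaving out 1 library in turn gave ranges of Id1 −0.082 to 0.13. In control siRNA against QSC, log2 changes took the opposite sign without scaling (Id2 0.064), with stronger peaks alone (Tcf3 −0.089, Tcf12 −0.17), with equal list lengths (Id2 0.15) and over gene bodies alone (Id1 −0.090, Id3 0.56), and leaving out 1 library in turn gave ranges of Id2 −0.043 to 0.0065. In LncMyod siRNA against control siRNA, log2 changes took the opposite sign without scaling (Id2 0.051), by peak number (Tcf3 −0.20, Id3 −0.19, Id4 −0.053), with stronger peaks alone (Tcf12 0.035, Id2 0.20), with equal list lengths (Id2 0.052) and over gene bodies alone (Id1 0.030, Id3 −0.094, Id4 −0.041), and leaving out 1 library in turn gave ranges of Tcf3 −0.12 to 0.13, Id4 −0.021 to 0.053, Id2 −0.18 to 0.10 and Id3 −0.030 to 0.39. Of 240 log2 changes of the called pathway genes under alternatives chosen after seeing the data, 152 kept the call and direction, 84 lost the call and 4 turned to the opposite sign or to 0: Grem1 in ASC against QSC (0) and Myog in control siRNA against QSC (−0.39) with stronger peaks alone, Myog with equal list lengths (−0.16) and Myod1 over the gene body alone (−0.16).

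Over all genes, 3580 calls in ASC against QSC became 712 to 6761 over the alternatives, 1116 in control siRNA against ASC 0 to 2640, 4726 in control siRNA against QSC 1016 to 7460, and 6 in LncMyod siRNA against control siRNA 0 to 343. Without scaling the median change of all genes in control siRNA against ASC moved from −0.08 to 0.04, and 283 loci had more and 85 less coverage in place of 636 and 480. With quantile normalization the split in ASC against QSC was 1617 and 1726 in place of 2112 and 1468. Group-specific regions in the 7 loci were 13 for QSC and 2 for ASC (8.54% and 5.99% of all regions). They were 22 and 7 without ASC replicate 1 (13.0% and 10.2%), and 14 and 12 without ASC replicate 2 (9.17% and 12.7%). Without LncMyod siRNA replicate 1, 14 regions in place of 1 were specific to control siRNA against LncMyod siRNA. Of all regions, 8.47% in place of 1.42% were.

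With the replicate number as a block, no call of the 7 loci changed (Tcf4 adjusted p = 0.0237 in ASC against QSC and 0.0434 in control siRNA against QSC). Of the 12 calls of pathway genes, the block ended those of Heyl in ASC against QSC (adjusted p = 0.0691), Bmp4 in control siRNA against ASC (0.0585) and Myod1 in control siRNA against QSC (0.0624). All-gene calls were then 3193, 551, 4354 and 0 in the order of the 4 comparisons above. Deviations of same-numbered libraries correlated at 0.00783 to 0.0964, so the numbers were not taken to pair libraries. Depth is unknown and limits all values.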
